A study of Mus musculus with 4 samples.

Results

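Chemokine ligands are small secreted proteins that draw leukocytes bearing the matching receptor along a concentration gradient. The 9 ligand genes Ccl1, Ccl3, Ccl4, Ccl5, Ccl22, Xcl1, Cxcl3, Cxcl10 and Cxcl16, known from activated T cells and other activated leukocytes, were read by gene symbol from a table of 18560 genes, in which each was found once. They were measured by RNA-seq in 4 libraries of CD4+ T cells from C57BL/6 mouse spleen, 2 of the genotype that the labels call Setd2-CD4 cre and 2 wild type. The first deletes Setd2, the methyltransferase that trimethylates lysine 36 of histone H3, by a Cre recombinase under Cd4 control, which acts during T cell development in the thymus, before splenic T cells are formed, and in the forerunners of CD8 T cells too. All 4 cultures started from naive cells activated through CD3 and CD28 and are called Th0, helper cells not steered toward an effector type. The length of stimulation is not settled, since titles carry a 48, the treatment labels give 3 days and the design text 2 days. Replicates are numbered 9 and 12 for Setd2 knockout and 1 and 6 for wild type, and separate animals are not stated for them. Each p-value below therefore reflects only how these 4 samples scatter, and that scatter may be technical.

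The ligands differ by the spacing of their first cysteines (CC, CXC and C families) and by the cells they call. CCL3, CCL4 and CCL5 draw effector T cells and myeloid cells, CCL22 binds CCR4 and CCL1 binds CCR8 on regulatory and Th2 cells, and XCL1 binds XCR1 on cross-presenting dendritic cells. CXCL3 draws neutrophils through CXCR2, CXCL10 is induced by interferons and draws CXCR3-bearing Th1 and CD8 T cells, and CXCL16 is a membrane-bound ligand of CXCR6 that proteases release. Activated T cells are a known source of several of these, whereas CCL22, CXCL3, CXCL10 and CXCL16 are best known from dendritic, myeloid or stromal cells.

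Total expected counts ran from 17284613 to 20418766 per library. Setd2 itself stood at 127.2 and 112.9 CPM in Setd2 knockout and at 157.2 and 174.5 CPM in wild type libraries (CPM, counts scaled by library size and TMM factor), with a log2 fold change of -0.47 (edgeR adjusted p 0.421), or -0.03 once a trend with gene length was removed. The groups did not overlap and Setd2 was lower in Setd2 knockout. The labels do not say which exons are deleted, and a gene-level count includes the exons that remain, so this is a weak check of the genotype. Markers of T cells were abundant in every library, with 10 of 10 measured and led by Il2ra. They summed to 5112 and 5180 CPM in Setd2 knockout and 5506 and 4709 CPM in wild type libraries. The sum hides markers that differ in direction. Of the 10, 6 lay lower in both Setd2 knockout libraries (24.3% of all genes), namely Cd3d, Cd3e, Cd3g, Cd4, Cd5 and Cd28. Thy1 alone lay higher in both (25.4%), and 0 of the 10 were called in edgeR (0.00780%). Of the 9 ligands, 7 had at least 1 CPM in all 4 libraries and passed the count filter, and Ccl1 and Xcl1 did not. In edgeR 0 of the 7 were called at an adjusted p under 0.05, where 0.00780% of all 12816 genes tested were called in either direction (the same share in limma-voom). Before adjustment, a p under 0.05 was found with 2 of the 7 higher, Cxcl3 and Ccl3 (6.23% of all genes), and 2 lower, Ccl5 and Cxcl16 (5.73%). DESeq2 called 2 of the 7 (1.44% of all genes), Cxcl3 and Ccl3, both higher (0.687% of all genes), and 0 lower (0.757%). The groups did not overlap for 5 of the 7, and for 49.7% of all genes. Setd2 knockout was on top in 2 of these, where 25.4% of all genes had that order, and at the bottom in 3, where 24.3% did. The log2 fold change was positive for 4 of the 7 (49.8% of all genes) and negative for 3 (50.2%), with a median of 0.11, against 0.00 over all genes. The fold changes are Setd2 knockout over wild type throughout.

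**Figure D1:**
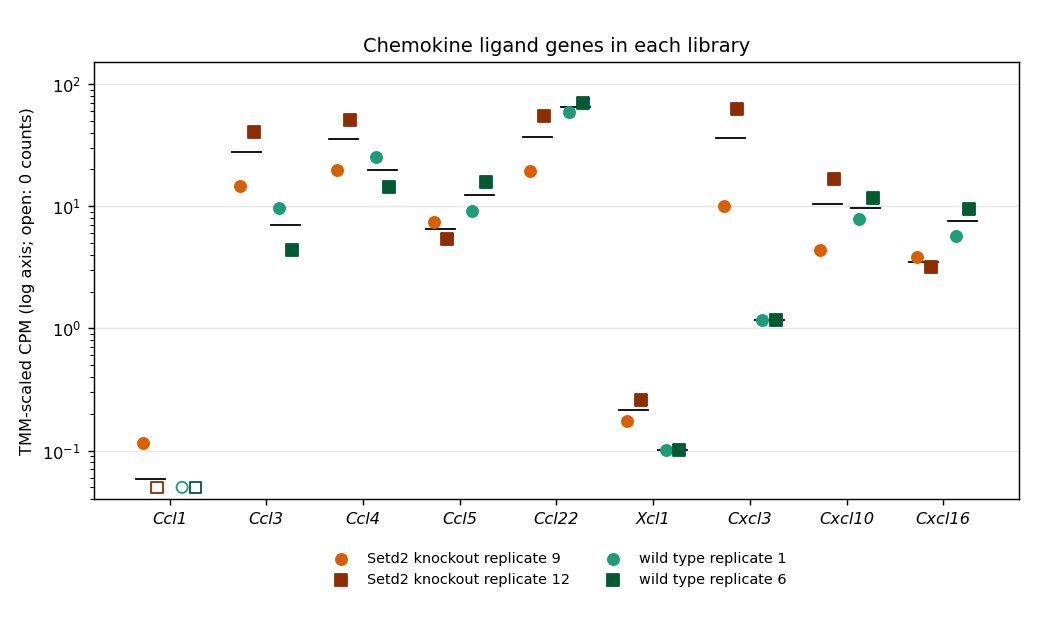
TMM-scaled CPM (log axis) of the 9 ligand genes in each library, with Setd2 knockout left of wild type within each gene, the 2 replicates of each group as points and the group mean as a black line. Cxcl3 and Ccl3, and Xcl1 at 2 to 5 counts a library, lie higher in both Setd2 knockout libraries, Ccl5, Ccl22 and Cxcl16 lie lower in both, and open symbols mark libraries in which Ccl1 had 0 counts.

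The largest fold change of the 7 tested ligands was that of Cxcl3, which encodes a neutrophil attractant of the CXC family (gene 330122, GRCm38.p6 chromosome 5, 90786101 to 90788093). Cxcl3 was found at 10.09 and 62.47 CPM in Setd2 knockout and at 1.17 and 1.163 CPM in wild type libraries. The wild type libraries were alike, and the groups did not overlap, but the Setd2 knockout libraries differed between themselves by 5.94-fold, computed with 0.5 CPM added. A gap of that size between the Setd2 knockout libraries was reached by 0.304% of the tested genes. The means were 36.3 ± 37.0 CPM in Setd2 knockout and 1.17 ± 0.00470 CPM in wild type (SD, n = 2 each). The log2 fold change was 4.95 (SE 0.96, 95% interval 2.55 to 7.36), with an edgeR p of 0.00272 that did not pass adjustment (0.295). DESeq2 gave an adjusted p of 0.00462 for the same log2 fold change to within 0.01 (4.96). With Setd2 knockout replicate 12 left out, the log2 fold change was 3.11 (edgeR adjusted p 0.844), and with replicate 9 left out it was 5.76 (edgeR adjusted p 0.0315), the lone library in each case being assumed to vary like the other group.

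Part of the Cxcl3 reads was shared out by estimate between it and its paralog Cxcl2, another ligand gene of CXCR2. The annotated transcripts share an identical run of 157 bases, and the 2 estimated counts, not whole in 3 libraries, added to whole numbers in each of those, within 0.011. Of the summed reads 95.8% and 92.7% were assigned to Cxcl3 in Setd2 knockout and 77.9% and 69.7% in wild type libraries. Counted as 1 feature, a setting chosen after the data were seen, Cxcl3 and Cxcl2 stood at 10.56 and 67.37 CPM in Setd2 knockout and at 1.475 and 1.669 CPM in wild type libraries (log2 fold change 4.63, SE 0.98, edgeR adjusted p 0.348). For the sum too, both values of Setd2 knockout exceed those of wild type.

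Chemokine promoters are known targets of NF-kappa-B, which T cell activation switches on, and of interferon-activated factors. For 6 of the 9 members an upstream sequence was matched in the RefSeq promoter table (GRCm38.p6), and Ccl4, Ccl5 and Cxcl16 were not matched. The 250 bases before the start of Cxcl3, Ccl3 and Cxcl10 are given because Cxcl3 and Ccl3 are, of the 7 tested ligands, those that lay higher in both Setd2 knockout libraries, and Cxcl10 is the interferon-induced ligand. Each is written 5′ to 3′ on the strand of its gene, with matches to the NF-kappa-B consensus, the AP-1 site TGANTCA, the interferon-stimulated response element (each on both strands) and the TATA box TATAA (gene strand) in capitals.
Cxcl3 (chr5:90785851-90786100, plus strand): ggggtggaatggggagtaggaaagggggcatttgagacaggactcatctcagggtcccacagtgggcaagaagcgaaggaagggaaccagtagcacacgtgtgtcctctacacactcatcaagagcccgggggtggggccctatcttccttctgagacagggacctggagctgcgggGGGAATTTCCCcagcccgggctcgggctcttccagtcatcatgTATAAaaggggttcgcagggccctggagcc
Ccl3 (chr11:83649379-83649628, minus strand): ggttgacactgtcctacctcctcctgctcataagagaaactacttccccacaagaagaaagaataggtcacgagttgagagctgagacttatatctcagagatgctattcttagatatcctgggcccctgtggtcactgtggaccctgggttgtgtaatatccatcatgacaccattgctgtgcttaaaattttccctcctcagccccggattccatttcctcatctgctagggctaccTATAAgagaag
Cxcl10 (chr5:92348890-92349139, minus strand): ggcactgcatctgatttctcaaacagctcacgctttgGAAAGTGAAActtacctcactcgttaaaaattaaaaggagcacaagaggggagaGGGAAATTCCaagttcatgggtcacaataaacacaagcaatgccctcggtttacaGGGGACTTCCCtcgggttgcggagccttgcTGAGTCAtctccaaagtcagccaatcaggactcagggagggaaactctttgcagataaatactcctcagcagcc

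Overlapping matches to a motif, on the same or opposite strands, were merged into 1 site. Upstream of Cxcl3 the search found 1 NF-kappa-B site, merged from 2 matches, starting 73 bases before the gene start, and 1 TATA box, starting 30 bases before it. Upstream of Cxcl10 it found 2 NF-kappa-B sites, starting 159 and 104 bases before the start and merged from 4 matches, with 1 AP-1 site at 74 bases and 1 interferon-stimulated response element at 213 bases. Upstream of Ccl3 only the TATA box was matched, 11 bases before the annotated start. The NF-kappa-B consensus occurs in 8.46% of all 32851 promoter windows of the table (300 bases each, 250 before and 50 after the start), the AP-1 site in 7.81%, the interferon element in 3.44% and the TATA box in 17.5%. No site of one motif overlapped a site of another. Of the other matched members, Ccl1 had 1 NF-kappa-B site (196 bases before the start, merged from 2 matches), and Ccl22 and Xcl1 had no match to any of the 4 motifs in the window. These are matches of letters, and binding was not measured.

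Ccl3 and Ccl4 encode the inflammatory CC chemokines also known as MIP-1-alpha and MIP-1-beta, which are usually made together. Ccl3 (gene 20302, chromosome 11, 83647843 to 83649378) was found at 14.5 and 40.68 CPM in Setd2 knockout and at 9.665 and 4.4 CPM in wild type libraries. The groups did not overlap, and each group held a gap of its own, 2.74-fold in Setd2 knockout and 2.07-fold in wild type, with 0.5 CPM added. The means were 27.6 ± 18.5 CPM in Setd2 knockout and 7.03 ± 3.72 CPM in wild type (SD, n = 2 each). The log2 fold change was 1.97 (SE 0.55, 95% interval 0.67 to 3.28), a 3.93-fold difference. In edgeR its p was 0.00899 (0.384 after adjustment), and in DESeq2 the adjusted p was 0.0148. Without Setd2 knockout replicate 12 the log2 fold change was 1.05, and without wild type replicate 6 it was 1.51.

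Ccl4 (gene 20303, chromosome 11, 83648624 to 83664683) was found at 19.72 and 50.9 CPM in Setd2 knockout and at 25.13 and 14.31 CPM in wild type libraries. The groups overlapped, because wild type replicate 1 lay above Setd2 knockout replicate 9, and Setd2 knockout replicate 12 was the highest. The means were 35.3 ± 22.1 CPM in Setd2 knockout and 19.7 ± 7.65 CPM in wild type (SD, n = 2 each). The log2 fold change was 0.84 (SE 0.46, 95% interval -0.25 to 1.93, edgeR adjusted p 0.460), and without Setd2 knockout replicate 12 it was 0.01.

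The annotated spans of Ccl3 and Ccl4 overlap by 755 bases, and neither count was whole in any library, while their sum was whole in all 4, at 590 and 1774 in Setd2 knockout and at 684 and 370 in wild type libraries. The split between them is therefore an estimate, and no identical run of 15 bases or more was found between their GENCODE transcripts, on either strand. Ccl3 was given 42.4% and 44.4% of the pair's reads in Setd2 knockout and 27.7% and 23.5% in wild type libraries. That share was 43.4% ± 1.43 in Setd2 knockout and 25.6% ± 3.0 in wild type (SD, n = 2 each), with a two-sided exact permutation p of 0.333, the smallest that 2 against 2 allows. Counted together, a setting chosen after the data were seen, the pair stood at 34.23 and 91.59 CPM in Setd2 knockout and at 34.79 and 18.71 CPM in wild type libraries (log2 fold change 1.23, SE 0.49, edgeR adjusted p 0.413). The sum did not separate the groups, since wild type replicate 1 lay just above Setd2 knockout replicate 9.

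Other cell types can also make these chemokines, and their markers are given here. The 6 B cell markers, all measured, summed to 254.6 and 430.1 CPM in Setd2 knockout and to 335.8 and 217.6 CPM in wild type libraries. Ccl4 and this sum put the 4 libraries in the same order, with Setd2 knockout replicate 12 highest and wild type replicate 6 lowest. The part of B cells in the Ccl4 values was not tested. NK cell markers, 6 of 6 measured and led by Tyrobp, summed to 11.02 and 8.57 CPM in Setd2 knockout and to 6.867 and 11.03 CPM in wild type libraries. Cd4 stood at 403.6 and 444.5 CPM in Setd2 knockout and at 464.1 and 575 CPM in wild type libraries. The CD8 chains Cd8a and Cd8b1, 2 of 2 measured and led by Cd8b1, summed to 432 and 323.1 CPM in Setd2 knockout and to 260 and 330.4 CPM in wild type libraries. That sum was highest in Setd2 knockout replicate 9, and Ccl3 was highest in replicate 12. Cd8b1 alone stood at 238.4 and 187.5 CPM in Setd2 knockout and at 140.6 and 183.4 CPM in wild type libraries. Its groups did not overlap, with Setd2 knockout on top as in 25.4% of all genes (log2 fold change 0.39, SE 0.24, edgeR adjusted p 0.485). Cd8a overlapped between the groups (0.31, SE 0.25). The part of CD8 T cells in the Ccl3 values was not tested. Of 4 gamma-delta T cell markers 1 was measured, Sox13, which was under 1 CPM in each library. In bulk RNA, fewer cells of a type and less RNA per cell cannot be told apart.

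The neutrophil and myeloid side is a known source of CXCL3, and its marker genes follow. Of 6 neutrophil markers Elane and Retnlg had 0 counts in all libraries, S100a8, S100a9 and Mpo were under 1 CPM in each, and Ly6g led the sum of 3.481 and 7.951 CPM in Setd2 knockout and 3.357 and 2.934 CPM in wild type libraries. Ly6g and Cxcl3 were both highest in Setd2 knockout replicate 12, and the part of neutrophils in the Cxcl3 values was not tested. The 10 macrophage and monocyte markers, of which 6 passed the count filter, summed to 11.31 and 15.59 CPM in Setd2 knockout and to 13.28 and 29.84 CPM in wild type libraries, led by Cd68. That sum was highest in wild type replicate 6, as were Cd68, Csf1r, Itgam, Fcgr1, C1qa, C1qb and C1qc. Lyz2 was highest in Setd2 knockout replicate 9. Cxcl3 was highest in Setd2 knockout replicate 12, as were Cd14 and Adgre1, both under 1 CPM in each library. The part of macrophages and monocytes in the Cxcl3 values was not tested. The 6 mast cell and basophil markers, 3 of them past the filter, summed to 10.62 and 5.679 CPM in Setd2 knockout and to 2.187 and 6.575 CPM in wild type libraries, led by Kit, with overlapping groups. Of the 3 tested, Cpa3 and Ms4a2 separated the groups with Setd2 knockout the higher, an order that 25.4% of all genes had. Kit did not, at 7.078 and 2.788 CPM in Setd2 knockout and 1.628 and 5.513 CPM in wild type libraries. Among the untested, Fcer1a had that order too. Mcpt8 (3 and 16 counts in Setd2 knockout, 0 and 4 in wild type) and Prss34 (0 and 0, 0 and 1) overlapped between the groups. Cpa3, a mast cell protease gene, had 15 and 18 counts in Setd2 knockout and 1 and 0 counts in wild type libraries (edgeR p 0.00461, adjusted p 0.340). Fcer1a, an IgE receptor gene, had 12 and 3 counts in Setd2 knockout and 0 and 0 counts in wild type libraries, and Ms4a2, another, had 31 and 19 counts in Setd2 knockout and 10 and 16 counts in wild type libraries. All 3 tested markers had positive log2 fold changes (median 1.07), as did 49.8% of all genes. The part of mast cells and basophils in the Cxcl3 and Ccl3 values was not tested.

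**Figure D2:**
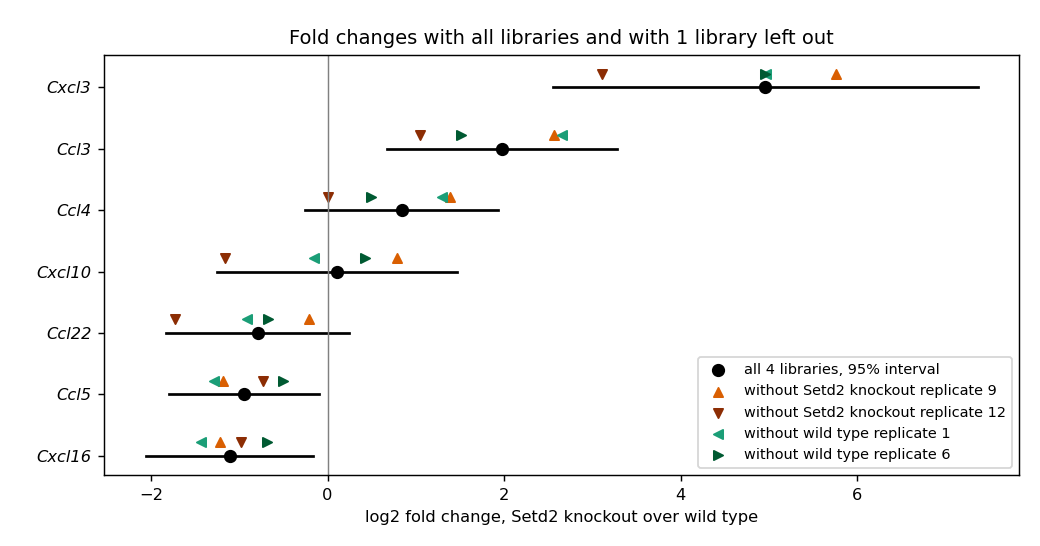
Log2 fold changes (Setd2 knockout over wild type) of the 7 ligand genes that passed the filter, with the edgeR estimate from all 4 libraries and its 95% interval in black and coloured triangles for each fit with 1 library left out. For Ccl4 the estimate without Setd2 knockout replicate 12 is 0.01, and for Cxcl10 it is -1.16.

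Ccl5, also called RANTES, is a CC chemokine made late after T cell activation and by memory and CD8 T cells (gene 20304, chromosome 11, 83525778 to 83530518). It stood at 7.484 and 5.421 CPM in Setd2 knockout and at 9.156 and 15.73 CPM in wild type libraries. The groups did not overlap, Setd2 knockout being the lower, and wild type replicate 6 was set apart as the highest. The means were 6.45 ± 1.46 CPM in Setd2 knockout and 12.4 ± 4.65 CPM in wild type (SD, n = 2 each), with a log2 fold change of -0.95 (SE 0.37, 95% interval -1.79 to -0.10, edgeR p 0.0327, 0.413 after adjustment). Without wild type replicate 6 the log2 fold change was -0.51. Ccl5 lies on the same chromosome as Ccl3 and Ccl4 and belongs to the same family. Its log2 fold change was negative and theirs were positive. In edgeR none of the 3 was called, and the groups overlapped for Ccl4.

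Cxcl16 encodes the transmembrane ligand of CXCR6 (gene 66102, chromosome 11, 70454389 to 70459984). It stood at 3.829 and 3.201 CPM in Setd2 knockout and at 5.646 and 9.509 CPM in wild type libraries, with no overlap and the lower pair in Setd2 knockout. The means were 3.52 ± 0.444 CPM in Setd2 knockout and 7.58 ± 2.73 CPM in wild type (SD, n = 2 each). The log2 fold change was -1.11 (SE 0.41, 95% interval -2.06 to -0.16, edgeR p 0.0277, adjusted p 0.413), and -0.68 without wild type replicate 6. Adam10, which encodes a protease that sheds CXCL16, stood at 105.4 and 86.53 CPM in Setd2 knockout and at 114.9 and 111.2 CPM in wild type libraries (log2 fold change -0.24, SE 0.21). Cxcr6, the receptor gene, stood at 25.99 and 33.56 CPM in Setd2 knockout and at 19.84 and 21.5 CPM in wild type libraries (log2 fold change 0.53, SE 0.23, edgeR adjusted p 0.417). Ligand and receptor genes thus had fold changes of opposite sign, neither of them called.

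Ccl22, the CCR4 ligand, had the highest mean FPKM of the members in wild type (gene 20299, chromosome 8, 94745684 to 94751388). It stood at 19.38 and 54.67 CPM in Setd2 knockout and at 59.06 and 69.44 CPM in wild type libraries. The groups did not overlap, but only narrowly, because Setd2 knockout replicate 12 lay close to wild type replicate 1 and the low value was that of replicate 9. The means were 37.0 ± 25.0 CPM in Setd2 knockout and 64.3 ± 7.35 CPM in wild type (SD, n = 2 each), with a log2 fold change of -0.79 (SE 0.44, 95% interval -1.83 to 0.24, edgeR adjusted p 0.460). It was -1.73 without Setd2 knockout replicate 12 and -0.21 without replicate 9. Ccr4, its receptor gene, stood at 50.07 and 78.89 CPM in Setd2 knockout and at 91.1 and 43.55 CPM in wild type libraries (log2 fold change -0.06, SE 0.38). Dendritic cells are a known source of CCL22, and their 8 markers, 5 of them past the filter and led by Fscn1, summed to 42.64 and 41.35 CPM in Setd2 knockout and to 54.22 and 50.27 CPM in wild type libraries. Clec9a, Siglech and Cd209a were under 1 CPM in each library, and the part of dendritic cells in the Ccl22 values was not tested.

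Cxcl10 encodes IP-10, the interferon-inducible CXCR3 ligand (gene 15945, chromosome 5, 92346638 to 92348889). It stood at 4.351 and 16.62 CPM in Setd2 knockout and at 7.834 and 11.63 CPM in wild type libraries, so that the Setd2 knockout libraries were the lowest and the highest of the 4. The means were 10.5 ± 8.68 CPM in Setd2 knockout and 9.73 ± 2.69 CPM in wild type (SD, n = 2 each). The log2 fold change was 0.11 (SE 0.58, edgeR adjusted p 0.945), and its 95% interval from -1.25 to 1.47 leaves a difference of more than 2-fold in either direction possible. Without Setd2 knockout replicate 12 it was -1.16, and without replicate 9 it was 0.79.

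The interferon pathway acts on Cxcl10. Ifng, the cytokine that induces Cxcl10, stood at 65.56 and 128.7 CPM in Setd2 knockout and at 35.1 and 11.33 CPM in wild type libraries (log2 fold change 2.07, SE 0.57, adjusted p 0.384 in edgeR and 0.00203 in DESeq2). Its groups did not overlap, Setd2 knockout being the higher. Of 12 tested interferon-stimulated genes 0 passed in edgeR or in DESeq2 (0.00780% and 1.44% of all genes). Their median log2 fold change was -0.36. At an unadjusted edgeR p under 0.05, 0 were higher (6.23% of all genes) and 1 lower (5.73%). That gene was the GTPase gene Gbp2, at 466.8 and 485.6 CPM in Setd2 knockout and 673.2 and 1125 CPM in wild type libraries (log2 fold change -0.92, SE 0.27, edgeR adjusted p 0.386). Ifit2 (-0.71, SE 0.31) and Gbp3 (-0.41, SE 0.21) had the next smallest p. Cxcr3, the receptor gene of CXCL10, stood at 15.03 and 21.63 CPM in Setd2 knockout and at 31.74 and 33.58 CPM in wild type libraries (edgeR p 0.0108, adjusted p 0.386).

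Xcl1 and Ccl1 were at the edge of detection. Xcl1, whose product lymphotactin draws cross-presenting dendritic cells (gene 16963, chromosome 1, 164931644 to 164935522), had 3 and 5 counts in Setd2 knockout and 2 and 2 counts in wild type libraries, without overlap. Ccl1, the CCR8 ligand (gene 20290, chromosome 11, 82176666 to 82179812), had 2 and 0 counts in Setd2 knockout and 0 and 0 counts in wild type libraries. A count of 0 allows up to 3 counts, or 0.155 CPM in Setd2 knockout replicate 12 and 0.153 and 0.152 CPM in the wild type libraries, for counting error only. A difference between the groups was not detectable at this depth for either gene.

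Levels can be compared between ligands on the length-scaled FPKM values of the authors. Ccl4 ranked first in both Setd2 knockout libraries, at 30.85 and 75.51 FPKM, and stood at 39.31 and 23.69 FPKM in the wild type libraries, where its rank was 1 in replicate 1 and 3 in replicate 6. Averaged over libraries, the order in Setd2 knockout was Ccl4 (53.2 ± 31.6 FPKM), Cxcl3 (34.6 ± 34.7), Ccl3 (34.5 ± 22.1), Ccl22 (19.6 ± 12.7), Ccl5 (12.5 ± 3.26), Cxcl10 (9.25 ± 7.43) and Cxcl16 (1.56 ± 0.113), with SD and n = 2. The SDs of neighbours from Ccl4 down to Cxcl10 overlap. Cxcl16 lies just below the SD range of its neighbour Cxcl10, but inside the wide SD range of Cxcl3. The wild type order was Ccl22 (36.6 ± 5.57 FPKM), Ccl4 (31.5 ± 11.1), Ccl5 (25.5 ± 10.4), Ccl3 (9.30 ± 4.61), Cxcl10 (9.27 ± 2.90), Cxcl16 (4.33 ± 1.46) and Cxcl3 (1.19 ± 0.0566), with SD and n = 2. There the first 3 overlap, as do Ccl3 and Cxcl10, whereas Cxcl3 lies below Cxcl16 by more than their spread. Cxcl3 made up 11% and 24.6% of the summed FPKM of the 9 ligands in Setd2 knockout and 1% and 1.01% in wild type libraries. Ccl5 made up 16.2% and 4.23% of that sum in Setd2 knockout and 15.8% and 27.1% in wild type libraries. The sum itself was 91.5 and 240.0 FPKM in Setd2 knockout and 114.5 and 121.3 FPKM in wild type libraries, so the Setd2 knockout libraries bracketed the wild type libraries.

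**Figure D3:**
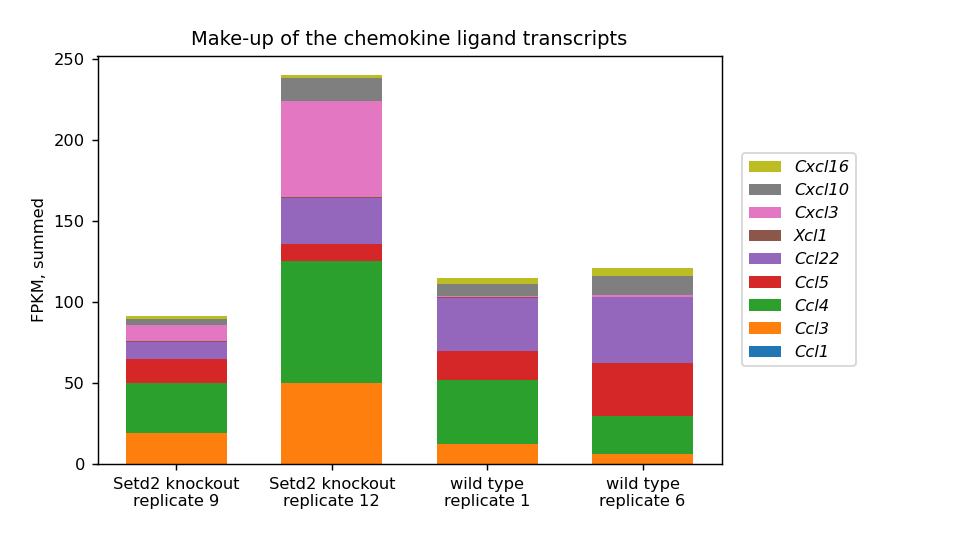
Summed FPKM of the 9 ligand genes in each library, stacked by gene, with the 2 Setd2 knockout libraries left of the 2 wild type libraries. Setd2 knockout replicate 12 has the tallest bar (240.0 FPKM) and replicate 9 the shortest (91.5 FPKM), and Cxcl3 is a visible band only in the Setd2 knockout bars.

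The 2 Setd2 knockout libraries differed for 5 of the 7 ligands in the same direction, with replicate 12 higher. With 0.5 CPM added, that gap was 2.74-fold for Ccl3, 2.54-fold for Ccl4, 2.78-fold for Ccl22, 5.94-fold for Cxcl3 and 3.53-fold for Cxcl10. Gaps as large were found in 2.14%, 2.82%, 2.09%, 0.304% and 0.999% of all tested genes. For Ccl5 (1.35-fold) and Cxcl16 (1.17-fold) replicate 9 was the higher of the pair, and gaps as large were found in 35.6% and 62.7% of genes. Between the wild type libraries the gaps of the 7 ligands reached at most 2.07-fold, for Ccl3, and 5.57% of all tested genes had gaps as large. That share was 11.5% for Ccl4 (1.73-fold), 12.8% for Ccl5 (1.68-fold) and 14.4% for Cxcl16 (1.63-fold). For Cxcl10, Ccl22 and Cxcl3 it was 22.8%, 55.8% and 98.7%. For Ccl5 and Cxcl16 the wild type gap was thus the less common of the 2. Over all tested genes the median absolute log2 difference was 0.31 between the Setd2 knockout libraries, 0.27 between the wild type libraries and 0.33 between the groups.

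Neighbouring genes on the chromosome gave few readable values. Ccl6, on the low-coordinate side of Ccl3 and 54756 bases from it, encodes another CC chemokine and stood at 0.928 and 1.29 CPM in Setd2 knockout and at 0.153 and 0.405 CPM in wild type libraries (log2 fold change 1.97, SE 0.84, edgeR p 0.0487, adjusted p 0.416). Ccl9, next to Ccl5, stood at 3.249 and 2.633 CPM in Setd2 knockout and at 1.984 and 5.26 CPM in wild type libraries (log2 fold change -0.30, SE 0.56), so its groups overlapped. Cxcl9, a further interferon-inducible CXCR3 ligand next to Cxcl10, stood at 1.682 and 1.394 CPM in Setd2 knockout and at 0.916 and 2.276 CPM in wild type libraries (log2 fold change -0.05, SE 0.67). Pf4 and Cxcl15, on either side of Cxcl3, did not pass the filter, with at most 26 counts of Pf4 and 2.92 counts of Cxcl15 in any library. Med11, 657 bases from Cxcl16, stood at 28.02 and 43.42 CPM in Setd2 knockout and at 31.39 and 23.06 CPM in wild type libraries (log2 fold change 0.39, SE 0.28), whereas Cxcl16 had a negative fold change.

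Of 29 other chemokine ligand genes, 27 were in the table and 7 passed the filter. In edgeR or DESeq2 0 of the 7 were called (0.00780% and 1.44% of all genes). At an unadjusted edgeR p under 0.05, 2 were higher, Cxcl2 and Ccl6 (6.23% of all genes), and 0 lower (5.73%). Cxcl2 stood at 0.464 and 4.905 CPM in Setd2 knockout and at 0.305 and 0.506 CPM in wild type libraries (log2 fold change 2.71, SE 1.08, edgeR adjusted p 0.413), and its groups overlapped, with the high value in replicate 12. The median of the 7 was -0.05. Of 23 chemokine receptor genes, 18 were tested, with a median log2 fold change of -0.20. Of these 0 passed in edgeR or DESeq2 (0.00780% and 1.44% of all genes). At an unadjusted edgeR p under 0.05, 0 were higher (6.23% of all genes) and 3 lower (5.73%). Besides Cxcr3, those were Cxcr1 (-2.39, SE 0.89), under 2 CPM in every library, and Ccr7, which guides naive T cells into lymph nodes, at 232.1 and 193.5 CPM in Setd2 knockout and 262.2 and 543.7 CPM in wild type libraries (-0.92, SE 0.34). Cxcr2, through which CXCL3 acts, stood at 14.91 and 5.266 CPM in Setd2 knockout and at 8.851 and 29.28 CPM in wild type libraries, with overlapping groups (log2 fold change -0.92, SE 0.66). Ccr8, the receptor gene for CCL1, stood at 44.61 and 113.8 CPM in Setd2 knockout and at 77.32 and 37.18 CPM in wild type libraries, which also overlapped.

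Among 18 cytokines and transcription factors known to drive chemokine genes, all tested, 0 passed in edgeR (0.00780% of all genes). At an unadjusted edgeR p under 0.05, 3 were higher (6.23% of all genes) and 2 lower (5.73%). DESeq2 called 2 higher (0.687% of all genes) and 1 lower (0.757%). Eomes, a factor of cytotoxic T cells that binds effector genes, stood at 28.72 and 22.1 CPM in Setd2 knockout and at 10.02 and 10.87 CPM in wild type libraries (log2 fold change 1.28, SE 0.25, adjusted p 0.261 in edgeR and 0.0132 in DESeq2). Batf3, an AP-1 family factor, stood at 15.43 and 17.86 CPM in Setd2 knockout and at 7.477 and 6.929 CPM in wild type libraries (1.21, SE 0.27, edgeR adjusted p 0.281). Both separated the groups with little spread within them, unlike Cxcl3 and Ccl3. Relb, an NF-kappa-B subunit gene, was among those lower at an unadjusted edgeR p (-0.55, SE 0.23, edgeR adjusted p 0.416). The other subunit genes were Nfkb2 (0.17, SE 0.23), Nfkb1 (0.09, SE 0.20), Rela (-0.08, SE 0.22) and Rel (-0.54, SE 0.34, edgeR adjusted p 0.496). Rel stood at 30.46 and 14.3 CPM in Setd2 knockout and at 32.35 and 32.67 CPM in wild type libraries. Of 4 genes for chemokine shedding, trimming and packing 0 passed, with 0 at an unadjusted p, and the granule proteoglycan gene Srgn (0.15, SE 0.26) and the peptidase gene Dpp4 (-0.18, SE 0.31), whose product trims CXCL10 and CCL22, differed by less than 1 SE.

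For the 2 ligands of smallest p, the genes with the nearest profile were taken by Euclidean distance between log2 CPM values centred over the 4 libraries. Nearest to Cxcl3 were Il22 (distance 0.939), Tdpoz4 (1.22) and Il17a (1.25). Il22 encodes a cytokine of Th17 cells and stood at 15.72 and 55.29 CPM in Setd2 knockout and at 2.696 and 1.619 CPM in wild type libraries, with replicate 12 above replicate 9 as for Cxcl3. Il17a, which encodes the defining Th17 cytokine, stood at 79.42 and 169.3 CPM in Setd2 knockout and at 5.799 and 9.509 CPM in wild type libraries. Nearest to Ccl3 were Azin2 (0.255), Me1 (0.321) and Sssca1 (0.466). Me1 encodes a malic enzyme and stood at 3.075 and 6.608 CPM in Setd2 knockout and at 1.526 and 0.708 CPM in wild type libraries. With 4 libraries many genes lie near any such profile, and likeness here is a description.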

How the data were processed

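RNA-seq of 2 Setd2 knockout and 2 wild type libraries was read from a table of 18560 genes. The deposited values were expected counts, made by the authors with Bowtie2 and RSEM on GRCm38.p6 and mm10 per the submitters' processing notes, with versions and settings not given in the sources used here. RSEM shares reads that fit several genes, so counts need not be whole, and it thereby makes close or overlapping genes uncertain. The second set of deposited values has no stated unit. It was taken as FPKM made by the authors, because gene lengths worked out from it matched annotated ones (median ratio 0.996, 562 genes with 1 transcript). The 4 group averages were not used. Libraries held 17284613 to 20418766 counts. No pair matched within sampling noise (chi-square per degree of freedom 30.4 to 161.7).

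Counts were rounded, filtered with filterByExpr (minimum count 10, 12816 genes), scaled by TMM and tested over all genes in edgeR 4.0.16 with its quasi-likelihood method (limma 3.58.1, R 4.3.3; robust, two-sided, Benjamini-Hochberg, threshold 0.05). SE and 95% intervals came from the F statistic. DESeq2 1.42.0, limma-voom, other factors and filters, FPKM with pseudocounts of 1 and 0.1, a length trend and left-out libraries were alternatives. Tests were checked on simulated data. The members and the 15 gene lists were chosen with earlier results of these data known. Genes beyond the members were named by smallest unadjusted p (at most 6 other ligands and 6 receptors under 0.05, 3 in each further list), with Ifng, Adam10, the nearest profiles and leading markers. Neighbours were the nearest listed genes. Receptors of the ligands, the NF-kappa-B subunit genes and single cell type markers other than the leading ones were named outside that rule, after values were seen. Some genes that the rule names are not reported here. Gene coordinates and upstream sequences are from RefSeq (GRCm38.p6), transcripts from GENCODE M21.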

Additional observations from a re-analysis of the deposited data

How the results depend on the processing

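Of 14 planned settings for each of the 7 tested ligands, together with 2 sums of gene pairs added after the data were seen, 92 values kept the direction and side of the threshold, 3 moved past the threshold and 6 changed sign. Cxcl10 held all 6 sign changes, at -0.12 in limma-voom, -0.19 and -0.24 in limma on log2(FPKM + 1) and log2(FPKM + 0.1), -0.27 with the length trend removed, -1.16 without Setd2 knockout replicate 12 and -0.15 without wild type replicate 1, and the cause was not tested. With the other libraries left out Cxcl10 kept its sign, up to 0.79. The median of the 7 ligands, which is that of Cxcl10 with all 4 libraries, took the same negative values in the first 4 of these settings, and ran from -0.73 to 0.79 with a library left out. DESeq2 moved Ccl3 (1.97, adjusted p 0.0148) and Cxcl3 (4.96) past the threshold, and with a library left out Cxcl3 ran from 3.11 to 5.76. Ligands called higher numbered 2 in DESeq2 and from 0 to 1 with a library left out. Over all genes, edgeR called 1 higher and 0 lower, against 48 and 33 without the filter, 88 and 97 in DESeq2, and 0 to 98 higher and 0 to 70 lower with a library left out. The lowest and highest of these left-out counts come from leaving out Setd2 knockout replicate 12 (0 higher, 0 lower) and wild type replicate 1 (98 higher, 70 lower). The median log2 fold change of all genes stayed within 0.1 of 0 in each setting. No paired analysis was possible because the groups share no replicate number. Ccl1 and Xcl1 had too few counts to test, and 2 libraries a group limit every comparison.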
